A study of Mus musculus with 2 samples.

Results

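Long-chain fatty acids are remodelled by elongases and desaturases, and the 10 hepatic genes described here encode these enzymes: Elovl1, Elovl2, Elovl3, Elovl5, Elovl6, Fads1, Fads2, Fads3, Scd1 and Scd2. They were chosen by name, and all probe sets annotated to them were kept, which gave 24 of the 34945 probe sets with a single gene and 10 of the 18193 genes named on the array. A probe set is a group of short probes that reads part of a transcript. Liver RNA came from male mice homozygous for floxed Lpcat3 alleles, and these mice either had no Cre (Lpcat3fl/fl, called Flox/Flox) or also carried an albumin-Cre transgene (Lpcat3fl/fl Albumin-Cre, called L-Lpcat3 KO). Lpcat3 is an acyltransferase that loads polyunsaturated chains onto phosphatidylcholine. All mice were 12 weeks old, were fed chow and were fasted for 6 hr, and RNA of 5 mice per genotype was pooled onto 1 array. Albumin-Cre is active in hepatocytes, so other liver cells keep Lpcat3 in both groups, and the effect of the transgene itself cannot be told apart from that of the deletion. There are no replicates, so each ratio below is a single difference between pools with no error, no test and no p-value.

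Elongases act in the endoplasmic reticulum, where they condense a fatty acyl chain with malonyl-CoA in the slow first step of a cycle that lengthens the chain. Desaturases in the same membrane then place double bonds, using electrons from cytochrome b5. In liver these enzymes work in separate branches. In the polyunsaturated branch, dietary linoleic and linolenic acids are each desaturated by Fads2, elongated by Elovl5 and desaturated again by Fads1. These steps give arachidonic acid from linoleic acid. Chains made from linolenic acid are extended further by Elovl2 on the way to docosahexaenoic acid. In the saturated and monounsaturated branch, Elovl6 lengthens palmitate to stearate, Scd1 and Scd2 turn these chains into palmitoleate and oleate, and Elovl3 and Elovl1 build longer saturated and monounsaturated chains. Fads3 acts mainly on sphingoid bases and is in neither branch. Many of these genes are known targets of the transcription factors SREBP-1c and PPARα in mouse liver.

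The 4 genes of the polyunsaturated branch had higher signals in L-Lpcat3 KO in all 8 of their probe sets, from 1.10-fold for Elovl2 to 1.70-fold for a probe set of Fads2. Of all measured genes, 50.7% had a higher signal in L-Lpcat3 KO. The probe sets of a gene read the same pools, so these 8 stand for 4 genes. The 5 genes of the saturated and monounsaturated branch had log2 ratios from -0.19 to 0.22 over their measured probe sets, with 8 of 11 lower and 3 higher in L-Lpcat3 KO. The median log2 ratio (L-Lpcat3 KO over Flox/Flox) was 0.33 for the polyunsaturated genes and -0.09 for the saturated and monounsaturated genes, a difference of 0.42 or 1.34-fold. The median over all 12084 measured genes was 0.00. The values are signal intensities on a linear scale, computed with the MAS5 algorithm. Signals under a floor of 76.4, which is the median of all values on the arrays, were set to it, and a probe set was called measured if at least 1 pool lay above it. A gene is represented by its brightest measured probe set, and counts and medians over genes use that probe set only. Its other measured probe sets are given beside it for the members and the genes named from the lists.

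**Figure D1:**
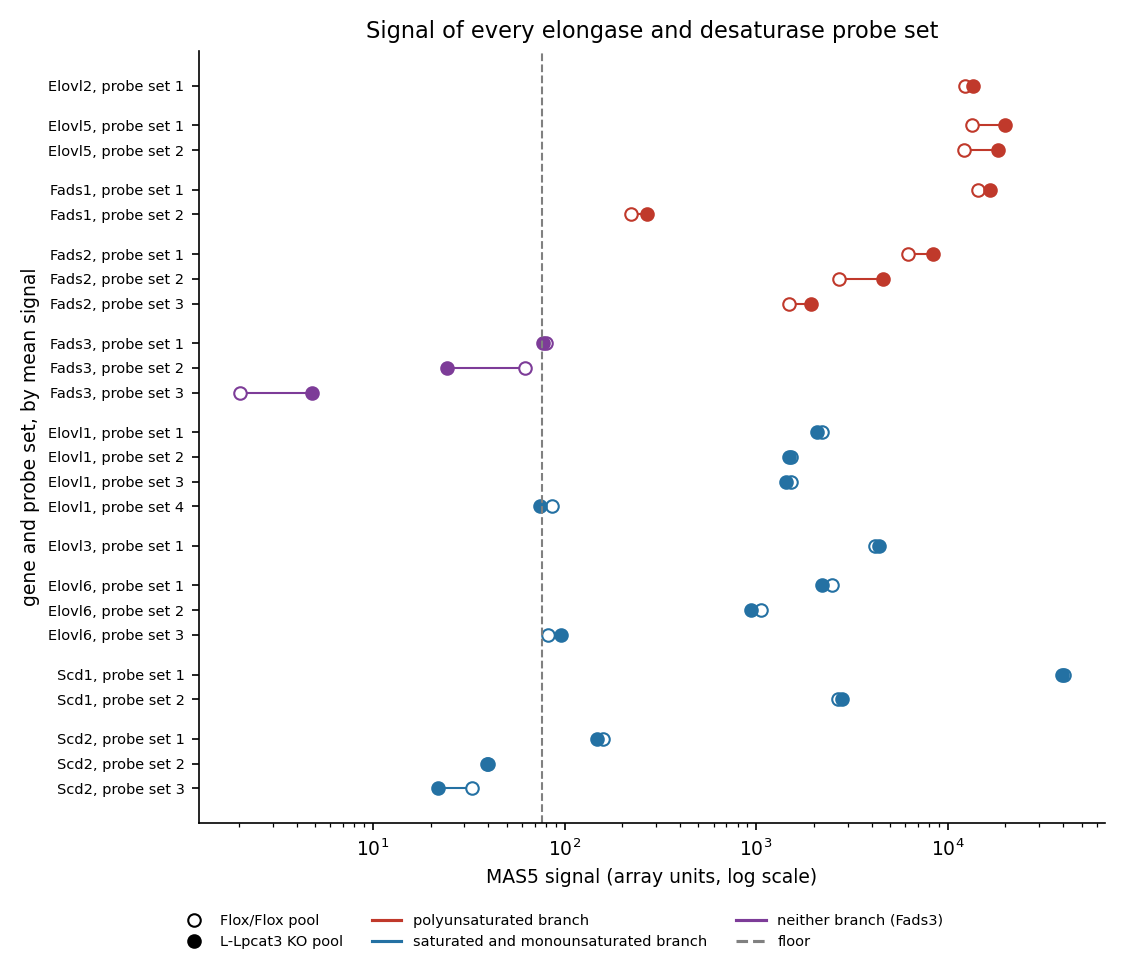
MAS5 signal (array units, log axis) of each of the 24 elongase and desaturase probe sets, with an open circle for the Flox/Flox pool, a filled circle for the L-Lpcat3 KO pool and colours for the branches. All 8 polyunsaturated probe sets have higher signals in L-Lpcat3 KO, by 1.10-fold to 1.70-fold. Measured probe sets of the saturated and monounsaturated branch differ by up to 1.14-fold downwards and 1.17-fold upwards. These sizes overlap Elovl2. Only the upward 1.17-fold, from an Elovl6 probe set just above the floor (81.6 and 95.4), reaches the size of Fads1. The 4 remaining probe sets, of Scd2 and Fads3, lie below the floor (76.4, dashed) in both pools.

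By the brightest probe sets, the member with the highest ratio was Elovl5. This elongase acts between both desaturation steps of the polyunsaturated branch and can also lengthen palmitoleate. Its brightest probe set (1415840_at) read 13420 in the Flox/Flox pool and 19793 in the L-Lpcat3 KO pool, a 1.47-fold higher signal (log2 ratio 0.56). Its other probe set (1437211_x_at), whose suffix marks probes that can match other transcripts, read 12202 and 18270.5, with a log2 ratio of 0.58. The probe sets therefore gave nearly the same ratio at similar brightness. For comparison, the ratios of the brightest and second brightest probe sets of a gene differed by a median of 0.11 over 1092 genes in which both had mean signals of at least 1000.

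Fads2 encodes the delta-6 desaturase, which carries out the first and rate-limiting step on linoleic acid. Its brightest probe set (1419031_at) read 6173 in the Flox/Flox pool and 8369 in the L-Lpcat3 KO pool, 1.36-fold higher with a log2 ratio of 0.44. Its second (1449325_at) read 2695 and 4575, 1.70-fold higher with a log2 ratio of 0.76. The third (1443838_x_at) read 1484 and 1942, with a log2 ratio of 0.39. All 3 were higher in L-Lpcat3 KO, but they disagreed on the size, so the difference for this gene is known only as a range from 1.31-fold to 1.70-fold.

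Fads1, the delta-5 desaturase that forms arachidonic acid, read 14337 in the Flox/Flox pool and 16704.5 in the L-Lpcat3 KO pool, 1.17-fold higher with a log2 ratio of 0.22. A far dimmer probe set of the gene read 223 and 270.0, with a log2 ratio of 0.28. Elovl2, which elongates chains past arachidonic acid, has a single probe set that read 12309 in the Flox/Flox pool and 13555 in the L-Lpcat3 KO pool. This was the smallest difference in the branch, 1.10-fold with a log2 ratio of 0.14. The order from Elovl5 through Fads2 and Fads1 to Elovl2 holds for the brightest probe sets. Neighbours in it are not separable, since the probe sets of Fads2 alone span 0.39 to 0.76.

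The saturated and monounsaturated branch was led in brightness by Scd1, the main hepatic delta-9 desaturase. Scd1 read 40203 in the Flox/Flox pool and 39613 in the L-Lpcat3 KO pool, a log2 ratio of -0.02, close to the top of the range of these arrays, whose highest signal was 60906. Near that top a probe set can be compressed, but the second Scd1 probe set, at 2684 and 2807, gave a log2 ratio of 0.06. Scd1 thus had ratios on both sides of 0, each within 1.05-fold. Scd2, an isoform best known from brain and from the liver of young animals, read 158 and 148 by its measured probe set, and its other probe sets read 39.8 and 39.5 and 33.1 and 21.9, below the floor.

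Elovl6, which lengthens palmitate to stearate, had the lowest ratio of the members. It read 2500.3 in the Flox/Flox pool and 2198 in the L-Lpcat3 KO pool (1417404_at), 12.1% lower with a log2 ratio of -0.19. Its second probe set (1417403_at) read 1064 and 936, also with a log2 ratio of -0.19, while the third read 81.6 and 95.4, just above the floor, with a log2 ratio of 0.22. The brighter probe sets thus gave the same ratio, and only the probe set near the floor lay in the opposite direction.

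Elovl3, an elongase of saturated and monounsaturated chains known from brown fat and skin and regulated by the circadian clock in liver, read 4172 in the Flox/Flox pool and 4370.5 in the L-Lpcat3 KO pool, with a log2 ratio of 0.07. It was the only gene of its branch with a higher signal in L-Lpcat3 KO by the brightest probe set. Elovl1, which builds very long saturated and monounsaturated chains used in sphingolipids, read 2215 and 2080.0 by its brightest probe set. Its 4 measured probe sets had log2 ratios from -0.16 to -0.04, and the lowest of these is a bound because L-Lpcat3 KO lay at the floor there. Fads3 lay at the floor of measurement, with 80.2 and 77.3 by its brightest probe set, and its other probe sets read 62.5 and 24.3 and 2.03 and 4.83, so no ratio can be read from them.

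**Figure D2:**
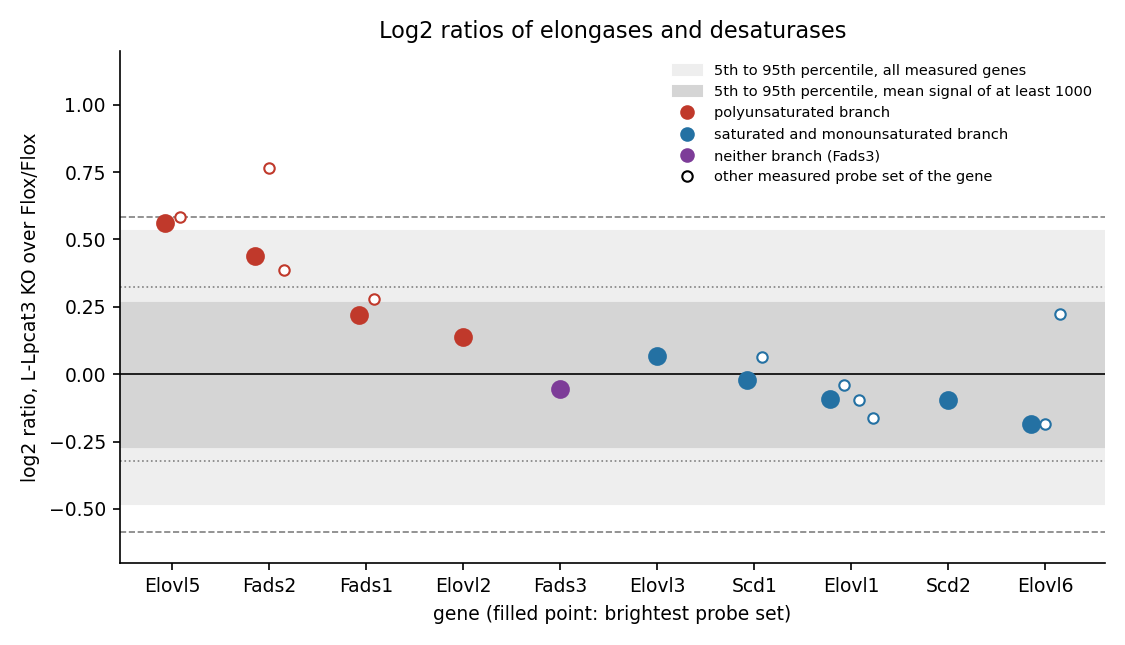
Log2 ratio (L-Lpcat3 KO over Flox/Flox) of each measured probe set of the 10 genes, with large filled points for the brightest probe set of a gene and small open points for the others. Grey bands give the 5th to 95th percentile of genes, dotted lines mark signals 25% higher and 20% lower, and dashed lines mark 1.5-fold. Elovl5 and Fads2 lie above the upper dotted line with every probe set, and no gene lies below the lower one.

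A signal at least 25% higher, or at least 20% lower, in L-Lpcat3 KO was counted as apart (0.32 on the log2 scale either way), and 1.5-fold was counted too. By the brightest probe set, 2 of the 10 genes, Elovl5 and Fads2, were at least 25% higher in L-Lpcat3 KO, while 11.9% of all measured genes were. None was lower by 20% or more, against 10.2% of all genes. None reached 1.5-fold in either direction, where the shares of all genes were 4% higher and 3.14% lower. A ratio above 0 was found for 5 of 10 members and for 50.7% of all genes, so over the whole family the counts lay near the background. Ratios of dim genes were more widely spread. With mean signals of at least 1000, the 8 members left included 2 that were apart upwards and none downwards, against 3.12% and 3.3% of 4267 such genes. Of these 8, 5 had a ratio above 0, against 48.5%. Among single probe sets, 5 of 20 measured ones were at least 25% higher and 1 reached 1.5-fold, against 13.3% and 4.4% of 20650 probe sets, and all 5 belonged to Elovl5 and Fads2.

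Where the members stood among genes of like brightness differed between the branches. The standard deviation of log2 ratios across genes (not across samples) fell from 0.34 over 6553 genes with mean signals of 76.4 to 1000 to 0.15 over 331 genes with 10000 to 20000. In that last range, which holds Elovl2, Elovl5 and Fads1, the 5th and 95th percentiles were -0.23 and 0.22. Elovl5 had the highest ratio of the 525 genes with a mean signal of at least 10000, and the next were Serpina4-ps1 and Retsat with 0.38 each. Of the 525 genes, 194 had mean signals of at least 20000, where the spread was narrower (95th percentile 0.10), which favours high places. Over all 12084 measured genes, the ratio of Elovl5 was reached by 4.36%, that of Fads1 by 18.8% and that of Elovl2 by 27.7%. Fads1 was in place 17 and Elovl2 in place 52 of the 525. Fads2, with a mean signal of 7187, had a ratio reached by 62 of the 4267 genes with mean signals of at least 1000, or 1.45%, and Elovl6 lay at the other side, with 88.5% of them at or above its ratio. These limits of brightness were chosen after the values were seen, and the places are descriptions.

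**Figure D3:**
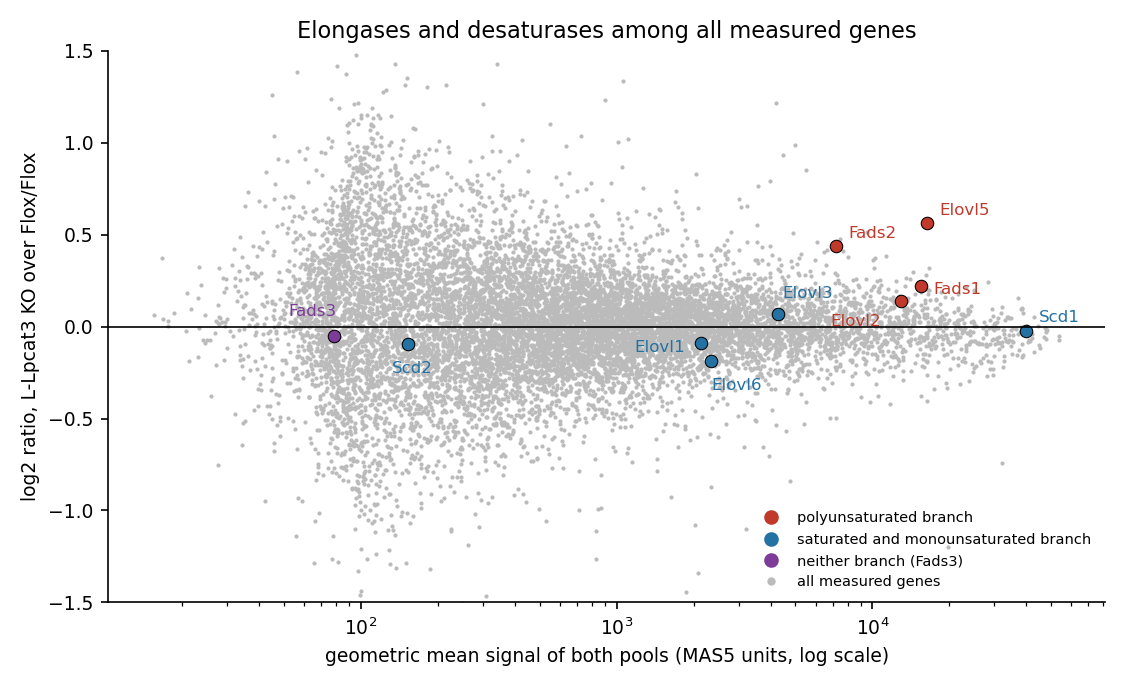
Log2 ratio (L-Lpcat3 KO over Flox/Flox) by mean signal over the pools (geometric, log axis) for all 12084 measured genes, with the members coloured by branch; 22 genes lie outside the plotted range. Elovl5 and Fads2 sit at the upper edge of the cloud at their brightness, while Scd1, Elovl1, Elovl3 and Elovl6 lie within it.

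Promoter windows of the members are shown because Elovl5 and Fads2 had the highest ratios and Elovl6 the lowest, and these genes are commonly described as targets of the same factors. Windows of 300 bases, from 250 before to 50 after the annotated start (RefSeq, GRCm38.p6), were matched for 6 of the 10 genes. Capitals mark matches on either strand to 4 motifs: TCACNCCAC (a core of the sterol regulatory element bound by SREBPs), CCAAT (bound by NF-Y, read as ATTGG on the other strand), CACGTG (an E-box, which reads the same on both strands) and GGGCGG (a GC box bound by Sp factors, CCGCCC on the other strand). They are given 5′ to 3′ on the strand of the gene.
Elovl5, chr9:77917115-77917414, plus strand: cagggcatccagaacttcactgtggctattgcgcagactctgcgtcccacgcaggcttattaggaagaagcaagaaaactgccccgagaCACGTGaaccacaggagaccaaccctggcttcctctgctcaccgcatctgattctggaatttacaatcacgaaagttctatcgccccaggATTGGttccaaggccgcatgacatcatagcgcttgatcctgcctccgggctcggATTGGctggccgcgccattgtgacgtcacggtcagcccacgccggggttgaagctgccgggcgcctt
Fads2, chr19:10101454-10101753, minus strand: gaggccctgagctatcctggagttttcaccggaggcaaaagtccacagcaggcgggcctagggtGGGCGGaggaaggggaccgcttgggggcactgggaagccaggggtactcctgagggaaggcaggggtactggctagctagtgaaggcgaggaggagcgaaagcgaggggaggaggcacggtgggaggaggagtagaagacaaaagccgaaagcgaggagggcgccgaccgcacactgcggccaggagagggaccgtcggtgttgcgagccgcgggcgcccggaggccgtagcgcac
Elovl6, chr3:129532136-129532435, plus strand: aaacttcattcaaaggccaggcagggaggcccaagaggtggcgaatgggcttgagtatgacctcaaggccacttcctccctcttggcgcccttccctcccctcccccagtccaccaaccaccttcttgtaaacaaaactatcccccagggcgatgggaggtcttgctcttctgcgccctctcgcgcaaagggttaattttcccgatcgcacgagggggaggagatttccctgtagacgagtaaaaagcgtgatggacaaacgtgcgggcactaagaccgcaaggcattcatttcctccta
The Elovl5 window holds CCAAT matches 71 and 17 bases before the start and an E-box 161 bases before it. The Fads2 window holds a GC box 186 bases before the start and has a GC content of 67%, against 57.7% for Elovl5 and 55.7% for Elovl6. The Elovl6 window holds none of the 4 motifs. Such matches are not particular to members with high ratios. Among windows not printed, those of Elovl1, lower in L-Lpcat3 KO, hold 5 and 2 GC boxes (GC content 70.7% and 59%). The first of them also holds a CCAAT match. The Fads3 window, of a gene near the floor, holds 2 CCAAT matches and 2 GC boxes (73%). The Elovl2 windows hold 5 GC boxes (84.7%) and no motif (76.7%). No sterol regulatory element core was found in the 8 windows of the 6 genes, which include a pair each for Elovl1 and Elovl2. Of 32851 mouse promoter windows of this length, 1.24% hold that core, 37.4% CCAAT, 7.15% CACGTG and 35.7% GGGCGG. A match, or the lack of one, is a description of the letters only. At a share of 1.24%, the lack of the core in 8 windows is uninformative, and binding of SREBPs was not tested.

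The enzymes that complete the elongation cycle had log2 ratios from -0.21 (Hacd4, a dim gene) to 0.09 (Tecr) by their brightest probe sets. Of 7 such genes (reductases and dehydratases) 6 were measured, 4 with a ratio above 0 and 2 below, none of them apart by that size, with a median log2 ratio of 0.03. Hacd3, a dehydratase of the cycle, read 11678 in the Flox/Flox pool and 11842 in the L-Lpcat3 KO pool, and Hsd17b12, its ketoacyl reductase, read 10484 and 11071 (log2 ratios 0.02 and 0.08). The other probe sets of Hacd3 gave 0.26 and -0.00, and that of Hsd17b12 gave 0.14. Second probe sets of Tecr and Hacd1 gave 0.20 and 0.13. Single probe sets of Hacd3, Tecr and Hsd17b12 thus reached the lower part of the range of the polyunsaturated probe sets (0.14 to 0.76). For the electron chain that serves the desaturases, 5 of 6 genes were measured, 2 above 0 and 3 below, with a median of -0.01 and none apart. Cyb5r4 read 1410 in the Flox/Flox pool and 1648 in the L-Lpcat3 KO pool. Its log2 ratio of 0.23 also lay in the range of the polyunsaturated probe sets. Cyb5a, the cytochrome b5 of this chain, read 30529.5 and 30313. Cyb5r3, its reductase, read 17315 and 15213.5 by its brightest probe set (log2 ratio -0.19), but its other measured probe sets gave 0.14 and 0.11.

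Related desaturases and elongases outside the 10 genes gave few values. Of 8 listed, 6 were named on the array and 3 were measured, while Elovl4, Elovl7 and Scd3 lay below the floor. Degs1, the dihydroceramide desaturase, and Fads6, an orphan member of the family, each had a log2 ratio of 0.01, and their other probe sets gave 0.16 for Degs1 and -0.11 for Fads6. Degs2 read 78.1 and 108, close to the floor, with a log2 ratio of 0.47.

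Palmitate synthesis, which feeds the saturated branch, had all 6 genes measured, 3 above 0 and 3 below, with a median of 0.06. Acacb, the acetyl-CoA carboxylase whose malonyl-CoA restrains mitochondrial fatty acid oxidation, was the only gene of this list apart by that size, with 1444 in the Flox/Flox pool and 1838 in the L-Lpcat3 KO pool (log2 ratio 0.35). Malic enzyme Me1, a source of NADPH, had a log2 ratio of 0.29, and its other probe set gave 0.30. ATP citrate lyase Acly had -0.04, with 0.30 and 0.04 by its other measured probe sets. Fatty acid synthase Fasn had -0.16.

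Of the transcriptional regulators listed for this pathway, 12 of 13 were measured, 7 above 0 and 5 below, with a median of 0.06. Insig2, which retains the SREBP escort protein in the endoplasmic reticulum, was the only one apart by that size. It read 2932 in the Flox/Flox pool and 4293 in the L-Lpcat3 KO pool (log2 ratio 0.55), and its other probe sets gave 0.27 and 0.70. Its relative Insig1 had a log2 ratio of 0.05, and Mlxipl, which encodes the glucose-responsive factor ChREBP, had -0.15. Srebf1, which encodes SREBP-1, and Ppara had 0.07 and 0.08, and the other probe sets of Ppara gave 0.17 and -0.01. Transcript levels of these factors do not report their activity.

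The last step to docosahexaenoic acid is a shortening of the chain in peroxisomes. For that step 6 of 8 genes were measured, 4 above 0 and 2 below, with a median of 0.10. Hsd17b4 read 11592 in the Flox/Flox pool and 13237 in the L-Lpcat3 KO pool (log2 ratio 0.19), and its other probe set gave 0.10. The thiolases Acaa1b and Scp2 had log2 ratios of 0.10 and -0.01. The other probe sets of Scp2 disagreed with each other, with 1.33 for a dimmer one (795 in the Flox/Flox pool and 2005 in the L-Lpcat3 KO pool), -0.30 and -0.15. Abcd2, a peroxisomal transporter of very long chains, read 42.9 in Flox/Flox, below the floor, and 213 in L-Lpcat3 KO, at least 2.78-fold higher against the floor. Its other measured probe set gave only 0.14, and the remaining ones lay below the floor in both pools, so its probe sets disagree on the size.

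In RefSeq, Fads3, Fads2 and Fads1 lie next to each other on chromosome 19, flanked by Rab3il1 and Fen1, and Scd2 and Scd1 lie on the same chromosome. Of 7 listed neighbours 4 were measured, all beside the Fads genes, 2 with ratios above 0 and 2 below. Wnt8b, next to Scd1, and Pkd2l1 lay below the floor, so no ratio was read beside the Scd genes. Fen1, a flap endonuclease beside Fads1, read 190 in the Flox/Flox pool and 614 in the L-Lpcat3 KO pool by one probe set (log2 ratio 1.70), but 158 and 120 by the other (-0.40). Rab3il1 gave 0.39 and -0.65 by its measured probe sets, and Tmem258 gave -0.31 and 0.66. Myrf, with a single measured probe set, read 651 and 466 (log2 ratio -0.48). Fen1, Rab3il1 and Tmem258 thus gave opposite directions within a gene at low signals, while all probe sets of Fads1 and Fads2 were higher in L-Lpcat3 KO.

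**Figure D4:**
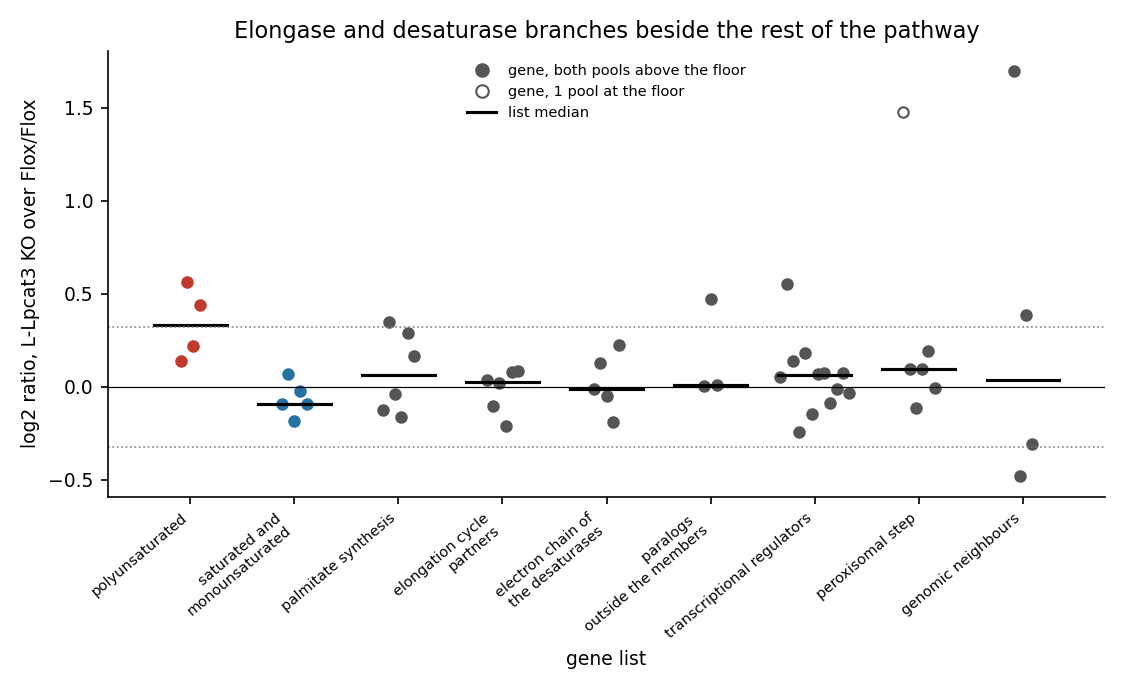
Log2 ratio (L-Lpcat3 KO over Flox/Flox) of each measured gene in both member branches and in 7 further lists of the pathway and its surroundings, with bars at list medians and dotted lines at 25% higher and 20% lower. The medians of the 7 other lists lie between -0.01 and 0.10, below the 0.33 of the polyunsaturated branch and above the -0.09 of the saturated and monounsaturated branch.

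The arrays and the tissue were checked as follows. Lpcat3 read 3310 in the Flox/Flox pool and 1305 in the L-Lpcat3 KO pool, 2.54-fold lower, by its only probe set. The deleted exon is internal while such probe sets mostly read transcript ends, so this is a weak check of the deletion. Hepatocyte markers were among the brightest genes and had a summed signal of 264210 in the Flox/Flox pool and 264905 in the L-Lpcat3 KO pool, with a median log2 ratio of -0.01 over 6 genes. Their brightest probe sets read from 37859 (Alb) to 47937 (Ttr) in the Flox/Flox pool, near the brightness of Scd1. Signals can be compressed there, so near-equal sums are a weak check of the hepatocyte share. Markers of other liver cells were compared by their brightest probe sets, each as a single difference between pools. All 8 macrophage markers were lower in L-Lpcat3 KO (median -0.24, summed signal 9462 and 8442). The 3 measured neutrophil markers lay just above the floor in Flox/Flox and below it in L-Lpcat3 KO, so their ratios (median -0.12) are bounds. Sums were taken before the floor was applied, so those of the neutrophil markers (249.9 and 136) include unreadable signals. Of 6 endothelial markers 5 were higher (median 0.22, summed 6678 and 7869). The other probe set of Lyve1 gave only 0.00, and the other measured ones of Fcgr2b ranged from -0.12 to 0.51. Of 5 measured stellate markers 4 were higher (median 0.05, summed 9597 and 10053). Of 4 bile duct markers 3 were measured (summed 278 and 307, with signals below the floor included), of which Epcam was at least 1.68-fold higher and Sox9 lower (162 and 77.6). The 3 adipocyte markers on the array, Adipoq, Lep and Ucp1, and 3 lymphocyte markers were below the floor in both pools. The part of these cells in the elongase and desaturase ratios was not tested, and in whole tissue fewer cells of a type and less RNA per cell cannot be told apart.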

How the data were processed

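Hepatic RNA pools of 5 mice per genotype were hybridized to Affymetrix mouse arrays, 1 per group, and this number limits the precision. For every probe set the authors deposited an intensity, which the submitters' processing notes credit to MAS5 (version not given in the sources used here), and the methods name GeneSpring GX. The mean of each array without its lowest and highest 2% was 500.0, so no further scaling was applied. Of 45101 probe sets, 64 were controls. The platform annotation, with symbols updated through RefSeq, gave 34945 probe sets 1 gene, 932 several genes and 9160 none, and only the first were used. Log2 ratios of the deposited intensities were taken after the floor, and 10820 genes lay above it in both pools. A ratio with 1 pool at the floor is a bound.

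Named genes were all members, Lpcat3, the genes of each list at least 25% higher or 20% lower (at most 4) with its 2 brightest, and markers at least 1.5-fold apart. Others (Fasn, Srebf1, Ppara, Tmem258, Tecr, Hacd1, Hacd4, Cyb5r4, Hsd17b4 and the genes ranked beside Elovl5) were chosen for their role, place or ratio. Members and lists were chosen with earlier results of these data known. Alternatives concerned the scaling, the floor, the gene summary and the branch membership. Scripts were tested on simulated data and used Python 3.11.15, matplotlib 3.10.9, statsmodels 0.14.6, scipy 1.17.1, pandas 2.3.3 and numpy 2.4.6. Sequences are from RefSeq (GRCm38.p6). Probe sets are given without coordinates, as their build is not stated.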

Additional observations from a re-analysis of the deposited data

How the results depend on the processing

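The member ratios, branch medians and counts were recomputed with median centring, quantile normalization or loess, with the floor at the 25th or 75th percentile, with no floor or a pseudocount, and with other summaries of probe sets. The medians of the 7 further lists were recomputed with loess and the 75th percentile only, and single genes of those lists, Lpcat3 and the markers were not recomputed. Of 175 such values 172 stayed within 0.197 on the log2 scale (the median difference between the brightest probe sets of a gene) or within 1.5 times a count, and no value that was at least 25% higher changed sign. That limit is wider than the ratios of Elovl2 (0.14), Elovl6 (-0.19) and the other members outside the polyunsaturated branch, so it says little for them. The lower floor and no floor left every member value unchanged. The polyunsaturated median with Fads3 added, 0.22, also counted as within the limit. The 3 that moved used the second brightest probe set, which only Elovl5, Fads1 and Fads2 had in the polyunsaturated branch: the log2 ratio of Fads2 became 0.76, the branch median 0.58 and the difference between branches 0.62. The branch values then rest on 3 genes each. Over all alternatives the polyunsaturated median ranged from 0.22, with Fads3 added to the branch, to 0.58, and the other from -0.09 to -0.04. In all 10 alternatives 2 members were at least 25% higher and 0 at least 20% lower. Elovl5 ranged from 0.56 to 0.58. Scd1 had a ratio above 0 in 4 of 10 alternatives, from -0.02 to 0.06, and the median of the electron chain list turned from -0.01 to 0.02 with loess. Scd2 and Fads3 were no longer measured once the floor was raised to the 75th percentile (387). No scaling moved the median of all genes by more than 0.1. No paired analysis was possible because each group has 1 array, and for the same reason no array could be left out.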
